A study of Rattus norvegicus with 10 samples.

Results

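Genes that build the mitotic spindle and divide the cell were examined in neonatal rat cardiomyocytes (beating muscle cells taken from newborn hearts) that overexpressed either of 2 forms of the transcriptional coactivator YAP. The set was fixed by name and holds 34 genes, of 39784 gene names in the deposited tables: the mitotic kinesins, the proteins of the central spindle and cleavage furrow, and the proteins that assemble the spindle and its poles. Each of the 34 had a single entry, and all 34 had a mean level of at least 1 TPM (a transcript level scaled for gene length and to the same total in every library). The cells were wild type. In the labels the treatments are Ad-Xon-YAP5SA, the activated form in which inhibitory serines are changed to alanine, and Ad-Xon-YAP5SA-S94A, which carries S94A as well, a substitution known to impair the contact with TEAD, the DNA-binding partners of YAP. There were 2 RNA-seq libraries per form, called biological replicates in the labels, with no statement of separate cultures or isolations, so p-values measure only the spread between these libraries. No library of uninfected or GFP cells was among the RNA-seq data, so each value is a difference between the 2 forms. The series also lists 6 CUT&RUN samples, not analysed here.

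When a cell divides, kinesins slide, crosslink and shorten microtubules to form a bipolar spindle and to align the chromosomes. After the chromosomes part, bundled microtubules at the midzone recruit an activator of the GTPase RhoA, which drives a ring of actin and myosin to pinch the cell in 2. Transcripts of many of these genes build up in G2 and mitosis and are scarce in resting cells. Cardiomyocytes largely leave the cell cycle soon after birth, and many then replicate DNA without completing cytokinesis.

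The depth, estimated from the authors' coverage and FPKM columns, was 4.02 to 5.10 gigabases of aligned sequence per library. Cardiomyocyte markers were high in every library, with Tnnt2, cardiac troponin T, at 5811 and 6323 TPM in YAP5SA and 7996 and 8190 TPM in YAP5SA-S94A. Fibroblast markers were also present in all libraries, with Col1a1, a fibrillar collagen, between 2135 and 3438 TPM. Known YAP targets separated the forms: Ccn1 stood at 522 and 438 TPM in YAP5SA and at 39.9 and 36.1 TPM in YAP5SA-S94A.

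Most of the 34 genes were higher in YAP5SA, the form that binds TEAD. A gene is said to have risen or fallen when its adjusted p, from limma on log2(TPM + 1) across all tested genes, lay under 0.05. By that rule 29 rose, 2 fell and 3 were not called. Among all 13420 tested genes 17.4% were called higher and 15.5% lower. The median log2 difference over the 34 was 1.17, against 0.00015 over all tested genes. Of the 29 that rose, 25 rose by at least 1 on the log2 scale, a size reached by 7.49% of tested genes. Both YAP5SA libraries lay above both YAP5SA-S94A libraries in 31 of the 34 (34.5% of all tested genes) and below in 2 (33.8%). The groups thus did not overlap in 33 of the 34, against 68.2% of all tested genes. Summed over the 34, the level was 1336 and 1390 TPM in YAP5SA and 733 and 751 TPM in YAP5SA-S94A. In bulk RNA a larger share of dividing cells and more RNA per dividing cell cannot be told apart. The smallest two-sided p of an exact permutation test of 2 libraries against 2 is 0.333, and the calls depend on the variance that limma shares across genes.

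**Figure D1:**
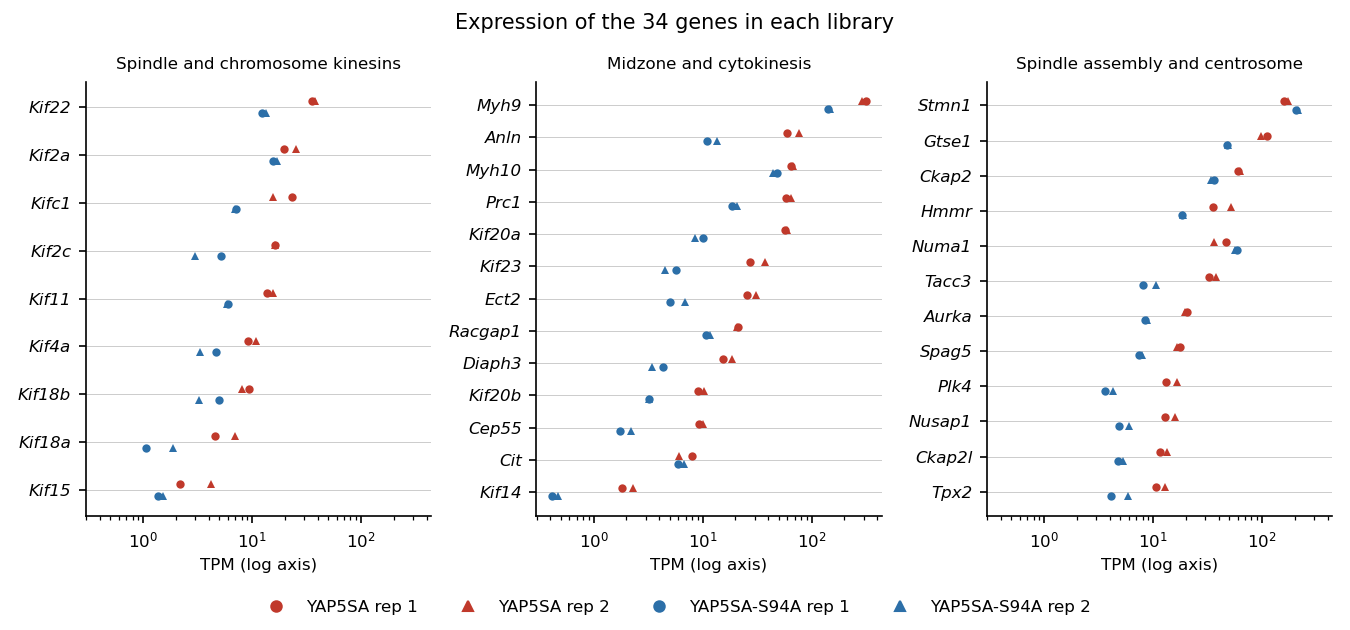
Level of each of the 34 genes in each library, in TPM on a log axis, by role, with circles for replicate 1 and triangles for replicate 2. Red points (YAP5SA) lie to the right of blue points (YAP5SA-S94A) for 31 genes, to the left for Stmn1 and Numa1, and overlap for Cit.

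Genes of the midzone and of cytokinesis gave the largest differences: 12 of 13 rose and none fell (all tested genes: 17.4% and 15.5%). Their median log2 difference was 1.59. Kif20a, a kinesin that carries the passenger kinase to the midzone, stood at 56.6 and 59.7 TPM in YAP5SA and at 10.2 and 8.50 TPM in YAP5SA-S94A (chromosome 18, 26230294 to 26238780, rn7). Its means of 58.2 ± 2.18 and 9.34 ± 1.18 TPM (SD, n = 2) differed 6.23-fold (log2 difference 2.52, SE 0.14, limma adjusted p = 4.04e-05). Kif20a shares 1890 bases with Cdc23, a subunit of the anaphase-promoting complex encoded on the other strand, and whether reads were counted by strand is not given in the sources used here. Cdc23 itself stood at 30.2 and 35.3 TPM against 29.6 and 32.1 TPM and was not called (log2 difference 0.08).

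The 2 subunits of centralspindlin, the motor complex that bundles the midzone, differed in size of change. Kif23, its kinesin, stood at 27.5 and 37.5 TPM in YAP5SA and 5.66 and 4.56 TPM in YAP5SA-S94A (chromosome 8, 62397908 to 62425162; log2 difference 2.45, SE 0.19, limma adjusted p = 1.53e-04). Racgap1, its GTPase-activating subunit, stood at 21.3 and 20.7 against 10.9 and 11.7 TPM and rose by 0.84. The ratio of Kif23 to Racgap1 within a library was 1.29 and 1.81 in YAP5SA and 0.521 and 0.391 in YAP5SA-S94A. Kif23 transcripts thus outnumbered those of its partner in both YAP5SA libraries, and the order was the opposite in both others. Ect2, the exchange factor that centralspindlin recruits to activate RhoA, stood at 25.6 and 31.2 against 5.06 and 6.87 TPM (chromosome 2, 109975813 to 110037911; log2 difference 2.08, SE 0.19).

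Anln, the anillin gene, encodes a scaffold that ties RhoA, actin, myosin and septins together in the cleavage furrow. It stood at 59.3 and 76.6 TPM in YAP5SA and 11.0 and 13.4 TPM in YAP5SA-S94A (chromosome 8, 20858227 to 20921602; log2 difference 2.38, SE 0.17, limma adjusted p = 8.97e-05). Diaph3, a formin that builds the ring's actin filaments, stood at 15.5 and 18.7 against 4.33 and 3.41 TPM. Cep55, which brings the abscission machinery to the midbody, stood at 9.18 and 10.1 against 1.74 and 2.23 TPM. These 3 genes were 4.41-fold to 5.57-fold higher in mean TPM, with no overlap between the forms. Prc1, the crosslinker of antiparallel midzone microtubules, was already at 18.7 and 20.8 TPM in YAP5SA-S94A and reached 58.1 and 64.6 TPM in YAP5SA (chromosome 1, 134250086 to 134271765; log2 difference 1.59, SE 0.12).

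The midzone kinesins Kif20b and Kif14 rose from low levels. Kif20b, which acts late in cytokinesis, stood at 9.04 and 10.3 against 3.24 and 3.23 TPM. Kif14, which binds Prc1 and citron kinase, was the least abundant of the 34, at 1.83 and 2.32 TPM against 0.416 and 0.473 TPM, where the deposited coverage was 0.831 and 0.923 reads per base. Its mean TPM differed 4.67-fold, but the log2 difference was 1.09 because the added 1 shrinks low values. The call of Kif14 was lost without YAP5SA-S94A replicate 1 (limma adjusted p = 0.0539). Cit, the citron kinase gene, was the exception in this group, at 8.07 and 6.08 against 5.98 and 6.75 TPM. Its groups overlapped, its 95% interval ran from −0.34 to 0.59, and the sign of its log2 difference of 0.12 turned without YAP5SA replicate 1 (−0.054).

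Of the contractile ring's motors, Myh9 and Myh10 encode the heavy chains of nonmuscle myosin IIA and IIB and also serve adhesion and migration. Myh9 had the highest mean of the 34 over the 4 libraries, though Stmn1 was above it in both YAP5SA-S94A libraries. Myh9 stood at 315 and 290 TPM in YAP5SA and 143 and 148 TPM in YAP5SA-S94A (chromosome 7, 109343718 to 109424457; log2 difference 1.05, SE 0.09, limma adjusted p = 2.53e-04). Myh10 stood at 65.2 and 67.4 against 48.2 and 44.7 TPM and rose by 0.50, a call lost without YAP5SA-S94A replicate 2 (limma adjusted p = 0.134). It overlaps Ndel1, a dynein regulator on the opposite strand at a mean of 76.4 TPM that was not called (log2 difference −0.0050). The ratio of Myh9 to Myh10 was 4.82 and 4.30 in YAP5SA and 2.96 and 3.31 in YAP5SA-S94A.

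**Figure D2:**
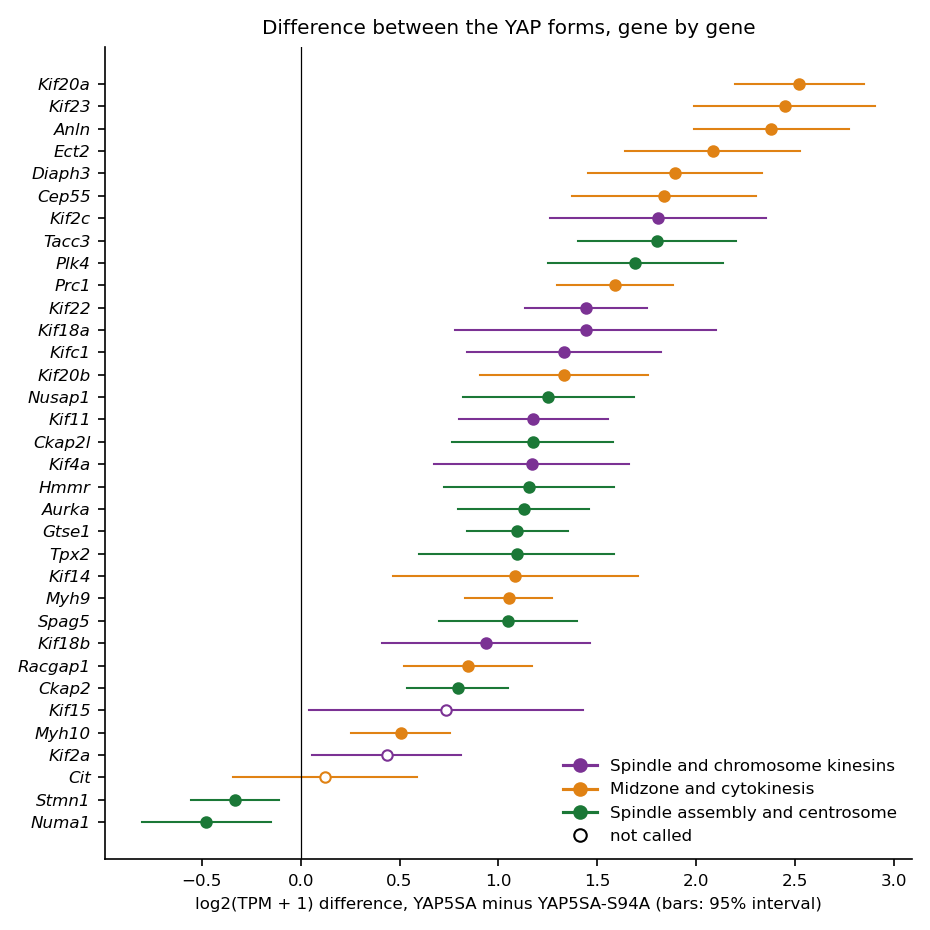
Difference between the forms for each of the 34 genes, on the log2(TPM + 1) scale, with 95% intervals from limma; colours give the role and open points were not called. Kif20a, Kif23, Anln and Ect2 lie above 2, and Stmn1 and Numa1 below 0.

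The promoters of the 34 were searched for 4 short motifs. The motif shares describe a set fixed by name, and their link to the differences was not tested. Windows from −250 to 50 bases around the annotated start were taken from RefSeq (build GRCr8), which held 33 windows for 31 of the genes. Kif14, Racgap1 and Tpx2 had no window in the table. The motifs were searched on both strands: TTTGAA, the cell cycle homology region through which the DREAM and B-Myb complexes time mitotic genes; CCAAT, the NF-Y box; TTGGCGC or else TTCCCGC or else TTCGCGC, which resemble E2F sites; and GGAATG, which resembles the TEAD site. The complement of TTGGCGC shares 4 letters with CCAAT, and in Ect2 a match of each overlapped. Example windows of 3 genes that rose and of Stmn1, which fell, are shown with each TTTGAA and CCAAT match, on either strand, in capitals.
Anln, chr8:29197464-29197763, minus strand: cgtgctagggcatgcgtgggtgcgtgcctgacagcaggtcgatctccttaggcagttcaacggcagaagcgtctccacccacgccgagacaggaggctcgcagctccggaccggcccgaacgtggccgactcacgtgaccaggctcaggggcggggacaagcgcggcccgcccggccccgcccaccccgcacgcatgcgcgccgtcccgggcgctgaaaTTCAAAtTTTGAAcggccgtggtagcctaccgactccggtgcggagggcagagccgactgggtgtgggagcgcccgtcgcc
Prc1, chr1:143659231-143659530, plus strand: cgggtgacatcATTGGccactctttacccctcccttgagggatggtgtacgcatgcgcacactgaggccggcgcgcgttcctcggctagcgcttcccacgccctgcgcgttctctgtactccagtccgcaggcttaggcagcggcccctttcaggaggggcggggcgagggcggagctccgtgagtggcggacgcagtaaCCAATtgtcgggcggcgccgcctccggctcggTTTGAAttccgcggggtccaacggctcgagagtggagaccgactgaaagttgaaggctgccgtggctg
Kif23, chr8:71320535-71320834, minus strand: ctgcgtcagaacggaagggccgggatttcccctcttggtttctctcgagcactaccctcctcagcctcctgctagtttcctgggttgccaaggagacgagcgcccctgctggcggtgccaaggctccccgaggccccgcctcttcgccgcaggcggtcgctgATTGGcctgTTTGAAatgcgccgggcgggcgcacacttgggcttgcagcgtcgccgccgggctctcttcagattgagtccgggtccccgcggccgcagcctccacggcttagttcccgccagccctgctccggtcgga
Stmn1, chr5:151964929-151965228, plus strand: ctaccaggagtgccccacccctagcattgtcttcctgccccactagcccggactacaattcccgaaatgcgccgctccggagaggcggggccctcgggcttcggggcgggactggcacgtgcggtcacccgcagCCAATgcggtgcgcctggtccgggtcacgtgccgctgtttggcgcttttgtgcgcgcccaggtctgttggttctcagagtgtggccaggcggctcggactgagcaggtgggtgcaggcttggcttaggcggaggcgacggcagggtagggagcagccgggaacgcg
In Anln, matches on opposite strands lay at −31 to −26 and −24 to −19 from the start, with 1 base between them. In Prc1 the TTTGAA match at −18 to −13 followed a CCAAT box at −50 to −46, and in Kif23 a CCAAT box on the minus strand at −88 to −84 stood 4 bases before TTTGAA. The Stmn1 window held a CCAAT box and an E2F-like match and no TTTGAA.

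The TTTGAA letters occurred in 18 of the 31 genes (58.1%), against 19.4% of the 27457 genes in the table. That comparison set, used for each motif, was not limited to the 13420 tested genes. Among the 26 genes of the table that rose, 16 held it. CCAAT occurred in 19 of 31 (61.3%, against 39.6% of all genes), and both motifs in 13 (41.9%, against 8.0%). In 17 of the 31 a TTTGAA match began between −100 and 50 bases from the start, an interval chosen after the positions were seen, against 8.9% of all genes. The E2F-like letters were in 7 genes (22.6%, against 8.4%), namely Kif23, Ect2, Plk4, Kif18a and Kif18b, which rose, Kif15, which was not called, and Stmn1, which fell. GGAATG was in 4 (12.9%, against 15.0%): Aurka, Diaph3, Myh10 and Numa1. Kif2c and Gtse1, which rose, and Kif2a, which was not called, held none of the 4 motifs in this window. A match is a run of letters and not a measured binding site. Sequence outside these windows was not searched for any of the motifs.

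**Figure D3:**
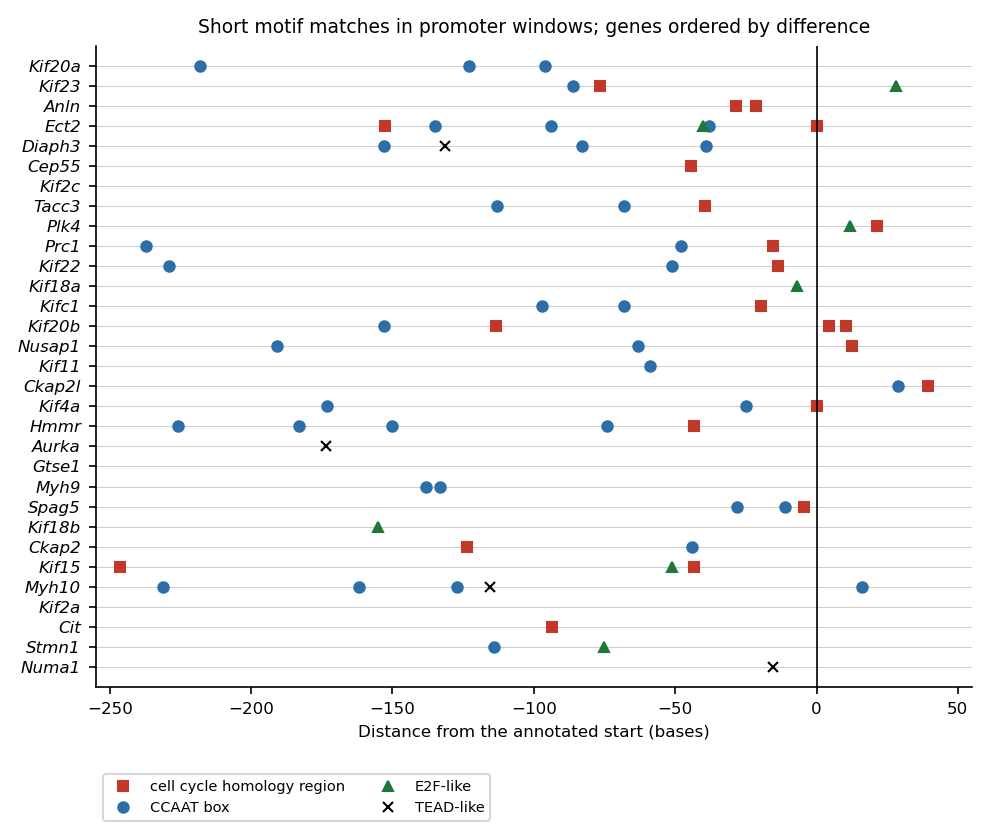
Positions of the motif matches in the promoter windows of 31 genes, in bases from the annotated start (vertical line), with genes ordered by their difference between the forms, the largest at the top. Red squares (TTTGAA) lie mostly within 50 bases of the start, and black crosses (GGAATG) appear in 4 genes.

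Among the kinesins that act on the spindle and chromosomes 7 of 9 rose and none fell (all tested genes: 17.4% and 15.5%). Their median log2 difference was 1.18. Kif2c, which strips tubulin from microtubule ends at centromeres, stood at 16.2 and 16.4 TPM in YAP5SA and 5.17 and 2.98 TPM in YAP5SA-S94A (chromosome 5, 130637347 to 130662680; log2 difference 1.80, SE 0.23, limma adjusted p = 0.00128). Its paralog Kif2a, which also works in resting cells and neurons, stood at 19.7 and 25.3 against 15.7 and 16.9 TPM. Kif2a was not called (log2 difference 0.43, 95% interval 0.059 to 0.81, limma adjusted p = 0.0761), though without YAP5SA replicate 1 it was called higher (0.61, adjusted p = 0.0214). The ratio of Kif2c to Kif2a was 0.822 and 0.647 in YAP5SA and 0.330 and 0.176 in YAP5SA-S94A, so Kif2a was the more abundant of the pair in every library.

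Kif11, the plus-end motor that pushes spindle poles apart, stood at 13.8 and 15.7 against 6.05 and 5.89 TPM and rose by 1.18. Kif15, which can share that task, stood at 2.18 and 4.24 against 1.38 and 1.52 TPM. Kif15 was not called (log2 difference 0.73, 95% interval 0.040 to 1.43, limma adjusted p = 0.0984), but it was called without YAP5SA replicate 1 (1.09, adjusted p = 0.021). It overlaps RGD1311745 on the opposite strand, at a mean of 27.8 TPM, over 7240 bases. Kifc1, the minus-end motor that focuses the poles, stood at 23.4 and 15.5 against 7.05 and 6.92 TPM and rose by 1.33.

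The chromokinesins Kif22 and Kif4a, which bind chromosome arms, also rose. Kif22 stood at 35.5 and 37.9 against 12.3 and 13.5 TPM (chromosome 1, 181635347 to 181650351; log2 difference 1.44, SE 0.13), the highest of these 9 genes in both YAP5SA libraries. In both YAP5SA-S94A libraries Kif2a was above it. Kif4a stood at 9.17 and 11.0 against 4.62 and 3.30 TPM and rose by 1.17. The plus-end depolymerases Kif18a and Kif18b were called higher as well. Kif18a, which damps chromosome movements at metaphase, stood at 4.54 and 6.95 against 1.07 and 1.89 TPM (log2 difference 1.44, SE 0.28). Kif18b stood at 9.46 and 8.0 against 4.98 and 3.28 TPM and rose by 0.94. Its call was lost without YAP5SA replicate 1 (limma adjusted p = 0.071) and without YAP5SA-S94A replicate 2 (adjusted p = 0.109).

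In the group that assembles the spindle and its poles 10 of 12 rose and 2 fell (all tested genes: 17.4% and 15.5%). Their median log2 difference was 1.11. Aurka, the kinase of the spindle poles, stood at 20.5 and 19.7 TPM in YAP5SA and 8.49 and 8.83 TPM in YAP5SA-S94A (chromosome 3, 161128309 to 161144524; log2 difference 1.13, SE 0.14, limma adjusted p = 0.00115). Tpx2, which activates and anchors that kinase, stood at 10.5 and 12.8 against 4.12 and 5.88 TPM. The ratio of Aurka to Tpx2 was 1.94 and 1.53 in YAP5SA and 2.06 and 1.5 in YAP5SA-S94A, ranges that overlap. Tacc3, a partner that the kinase loads onto spindle fibres, stood at 32.4 and 37.6 against 8.11 and 10.6 TPM and rose by 1.80.

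Plk4, the kinase that starts centriole duplication, stood at 13.3 and 16.6 against 3.59 and 4.25 TPM (chromosome 2, 123802527 to 123820942; log2 difference 1.69, SE 0.19, limma adjusted p = 6.87e-04). Hmmr, a microtubule-binding protein of the poles, stood at 35.6 and 51.8 against 18.6 and 19.0 TPM. Nusap1, which bundles microtubules near chromosomes, rose by 1.25 and Spag5, astrin, which works at kinetochores and poles, by 1.05. Their values were 12.8 and 15.8 against 4.88 and 5.95 TPM for Nusap1 and 17.6 and 16.4 against 7.45 and 7.96 TPM for Spag5. Gtse1, a microtubule-tip protein of mitosis, was well expressed in both forms, at 111 and 98.1 against 47.8 and 48.8 TPM, and rose by 1.09. The related spindle proteins Ckap2 and Ckap2l rose by 0.79 and 1.17. Ckap2 stood at 60.7 and 62.8 against 36.1 and 34.3 TPM, and Ckap2l at 11.6 and 13.5 against 4.72 and 5.25 TPM.

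Stmn1 and Numa1 fell. Stmn1, stathmin, binds free tubulin and promotes microtubule shrinkage. It had the second highest mean of the 34 over the 4 libraries, and the highest level in both YAP5SA-S94A libraries. Stmn1 stood at 158 and 172 TPM in YAP5SA and 204 and 213 TPM in YAP5SA-S94A (chromosome 5, 146680757 to 146687154; log2 difference −0.33, SE 0.09, limma adjusted p = 0.0342). Numa1, which organizes spindle poles and is a nuclear structural protein between divisions, stood at 46.5 and 36.6 against 58.8 and 56.8 TPM (chromosome 1, 156297907 to 156372855; log2 difference −0.48, SE 0.14, limma adjusted p = 0.0358). Both differences were small, and both calls were lost without YAP5SA-S94A replicate 1 (adjusted p = 0.194 for Stmn1 and 0.15 for Numa1) and without replicate 2 (0.309 and 0.101).

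**Figure D4:**
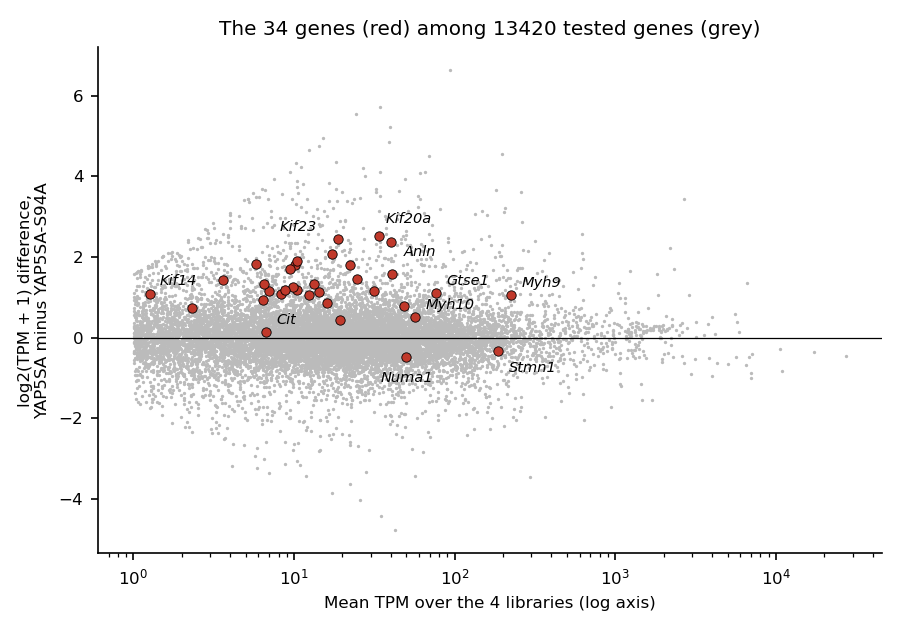
The 34 genes (red) among all 13420 tested genes (grey), with mean TPM over the 4 libraries on a log axis and the difference between the forms on the log2(TPM + 1) scale. The 34 span mean levels from that of Kif14 to that of Myh9, and all but Stmn1 and Numa1 lie above 0.

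The replicates of one form also differed from each other in these genes. In YAP5SA, 25 of the 34 were higher in replicate 2 than in replicate 1, against 38.9% of all tested genes, with a median log2 difference between the replicates of 0.16. In YAP5SA-S94A the count was 22 of 34, against 50.1% of tested genes, and the median was 0.060. Both medians are far below the 1.17 between the forms. With YAP5SA replicate 1 left out the median of the 34 was 1.27, and with YAP5SA replicate 2 left out it was 1.11.

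Partners of the 34 in the same machinery did not all move. Each list count stands beside the 17.4% of all tested genes called higher and the 15.5% called lower. All 7 genes of the chromosomal passenger complex and midzone partners rose, with a median log2 difference of 1.26. With no filter on level, 6 of the 7 were called higher. They included Plk1, the main mitotic kinase of this set (22.5 and 21.1 against 5.58 and 4.46 TPM, log2 difference 1.93), Cdca8, borealin (1.49), and Arhgap11a, a RhoA regulator (1.01). Of 9 other spindle microtubule proteins 5 rose and 2 fell, and with no variance trend on level 4 rose and 1 fell. Those with the smallest p were Psrc1 (1.99), Dlgap5 (1.18) and the kinetochore kinesin Cenpe (1.35). The 2 that fell, Clasp1 and Clasp2, named after their values were seen, promote microtubule rescue also in resting cells, and neither was called without YAP5SA-S94A replicate 1 or without replicate 2.

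The gamma-tubulin ring, which nucleates microtubules throughout the cell cycle, and augmin gave few calls. Of 18 genes none rose and 1, Haus8, fell (10.1 and 9.13 against 14.1 and 14.4 TPM), with a median of −0.055. The count that fell was 0 without YAP5SA replicate 2 and without either YAP5SA-S94A library, and 1 gene rose without YAP5SA replicate 1. Of 13 centriole and pericentriolar genes 3 rose and none fell (all tested genes: 17.4% and 15.5%), with a median of 0.37. Cdk5rap2, which anchors gamma-tubulin at the centrosome, had by far the largest difference of these, at 38.2 and 36.1 against 5.75 and 6.62 TPM (log2 difference 2.41, limma adjusted p = 5.03e-05), followed by Cep63 (0.78) and Cntrob (0.61).

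Of 11 genes of RhoA and the actomyosin ring 6 rose and none fell (all tested genes: 17.4% and 15.5%), with a median of 0.50. Those with the smallest p were the regulatory light chains Myl12a and Myl12b (1.66 and 0.89) and the actin-severing gene Cfl1 (0.55). Without YAP5SA replicate 2, 1 fell. Of 13 ESCRT genes, which cut the last bridge between daughter cells and also sort endosomal cargo, 1 rose and 1 fell, both forms of the same subunit: Chmp4c (19.5 and 18.4 against 9.54 and 14.3 TPM) and Chmp4b (146 and 133 against 201 and 200.5 TPM). With YAP5SA-S94A replicate 1 or either YAP5SA library left out, the count that rose was 0. Of 8 genes of Ran and the importins, which release spindle factors around chromosomes, 5 rose and none fell, with a median of 0.55. Ranbp1 (1.01), Kpna2 (0.66) and Ran (0.64) had the smallest p.

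**Figure D5:**
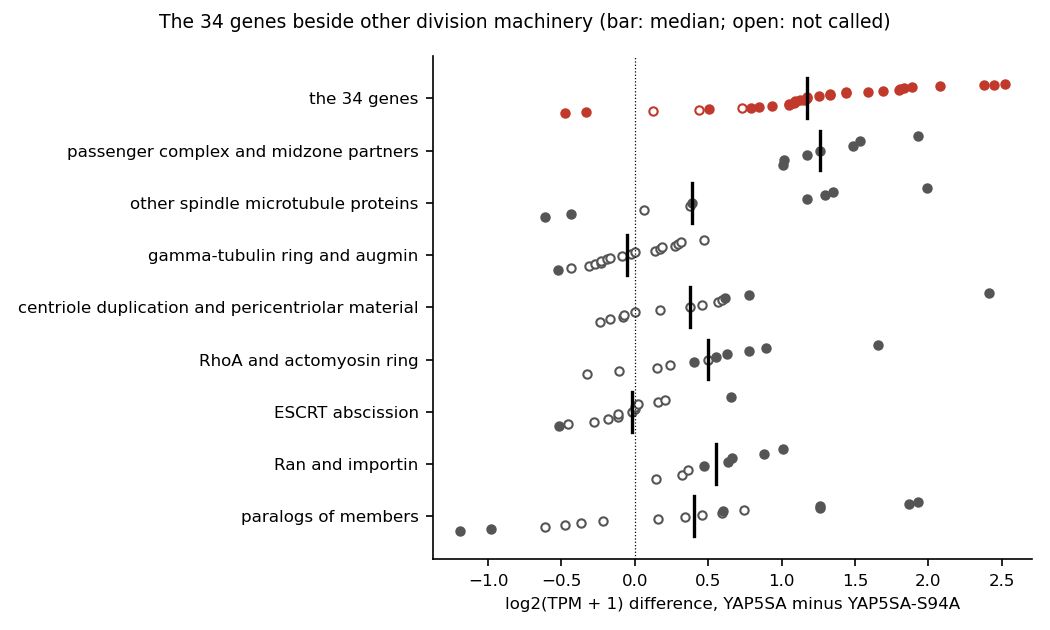
Difference between the forms on the log2(TPM + 1) scale for the 34 genes (red) and 8 lists of related genes (grey), 1 point per tested gene, filled where called, with the median as a bar. The medians are 1.17 for the 34, 1.26 for the passenger complex list and −0.055 for the gamma-tubulin and augmin list.

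Paralogs of the 34 gave a mixed picture. Of 22 listed, 16 were tested, 5 rose and 2 fell (all tested genes: 17.4% and 15.5%), with a median of 0.40. The count that fell ranged from 1 with no filter on level to 5 with a replicate block. Plk1 and Aurkb also belong to the list of the passenger complex and midzone partners. Of those that rose, Plk1, Plk2 (192 and 197 against 47.9 and 58.0 TPM) and Aurkb (21.6 and 19.8 against 9.69 and 6.65 TPM) had the smallest p. Tacc3 and Diaph3 were set against a paralog within each library. The ratio of Tacc3 to its paralog Tacc1 was 1.2 and 1.25 in YAP5SA and 0.225 and 0.280 in YAP5SA-S94A. That of Diaph3 to Diaph1 was 0.699 and 0.768 in YAP5SA and 0.214 and 0.161 in YAP5SA-S94A. Tacc1 (26.9 and 30.1 against 36.1 and 38.1 TPM) and Diaph1 (22.1 and 24.3 against 20.3 and 21.2 TPM), named for these ratios after their values were seen, were not called.

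General markers of proliferation were higher in the same libraries. All 6 rose: Mki67 stood at 13.2 and 14.9 against 5.70 and 6.50 TPM, Top2a at 25.7 and 31.9 against 5.02 and 6.72 TPM, and Cdk1 at 76.7 and 87.1 against 17.7 and 10.3 TPM. The other 3 were Ccnb1 (log2 difference 1.48), Pcna (0.76) and Mcm2 (0.43).

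Markers of cells that could divide beside cardiomyocytes in such cultures moved in different ways, and their part in these results was not tested. For comparison, 17.4% of all tested genes were called higher and 15.5% lower. Of 10 fibroblast markers 1 rose and 2 fell, with summed levels of 6886 to 8645 TPM in YAP5SA and 6995 to 7351 TPM in YAP5SA-S94A. None of 5 mural markers was called (167 to 186 against 164 to 179 TPM). Of 7 epicardial markers 6 were tested and 3 rose, summing to 83.7 to 99.0 against 47.5 to 49.7 TPM, with Krt19 at 41.5 and 33.0 against 7.54 and 7.15 TPM and Upk3b at 22.4 and 18.2 against 0.611 and 0.544 TPM. The defining epicardial gene Wt1 stood at 2.63 and 2.27 against 3.10 and 2.83 TPM. Upk1b (20.7 and 18.3 against 27.4 and 23.5 TPM) and Tbx18 (7.71 and 7.41 against 8.59 and 11.2 TPM) also lay lower in both YAP5SA libraries. These 3 epicardial genes were not called. Endothelial markers summed to 16.3 to 17.5 against 34.9 to 35.0 TPM, with 1 of 5 tested falling and Cldn5 listed at 0 in every library. The gene that fell was Kdr (3.97 and 3.33 against 21.3 and 19.9 TPM). The other 4 tested were not called, and Pecam1, Tie1 and Egfl7 overlapped between the forms. Leukocyte markers summed to 528 to 547 against 826 to 832 TPM, with 1 of 5 tested rising, 3 falling and Cd3e at 0 in every library. Most of that sum was Lyz2, which fell (438 and 428 against 714 and 710 TPM). The leukocyte gene that rose was Csf1r (38.2 and 37.5 against 14.6 and 12.9 TPM). Schwann cell markers summed to 2.08 to 4.35 against 5.96 to 6.04 TPM, and none of 2 tested was called. Of 10 cardiomyocyte markers 3 rose and 5 fell, with a median log2 difference of −0.35. Their sum was nevertheless higher in YAP5SA (37028 to 38057 against 35231 to 35320 TPM). That sum includes Nppa, a natriuretic peptide gene, which rose (9625 and 9474 against 3743 and 3714 TPM). Among the 5 that fell were Myh6 (458 and 413 against 1388 and 1499 TPM) and Tnni3 (912 and 801 against 2614 and 2401 TPM).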

How the data were processed

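RNA was sequenced from 4 libraries, 2 per YAP form. The build is rn7, and StringTie 2.2.1, HISAT2 2.2.1 and fastp were used, per the submitters' processing notes, which give no settings here. Per the file headers, each deposited table gives TPM, FPKM and coverage for 40903 entries. The TPM and FPKM values were computed by the authors, and the deposited coverage signal is per base and not scaled for depth. Whether counting used strand is not given in the sources used here, and 7 of the 34 genes overlap an entry on the opposite strand at a mean of at least 1 TPM.

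TPM was summed over entries sharing a name. Genes with a mean of at least 1 TPM entered limma 3.58.1 (R 4.3.3) as log2(TPM + 1), with a variance trend on level and 5.09 prior beside 2 residual degrees of freedom, YAP5SA minus YAP5SA-S94A, with Benjamini-Hochberg adjustment over all tested genes and a threshold of 0.05. The method was tested on simulated data drawn from the fit's own variance model, with far fewer genes changed than were called here. That test cannot show how many of the real calls are false. The 34 genes and the lists were chosen with earlier results of these data known. All 34 are named, and of each list the called genes with the 3 smallest p or, where none was called, up to 2 with the highest level. Coordinates of genes are those of the deposited tables, and promoter windows are RefSeq's on GRCr8. Alternatives were other pseudocounts, filters, units, scalings and variance models, a replicate block, and leaving out each library. Figures were drawn with matplotlib 3.10.9 and tables made with numpy 2.4.6 and pandas 2.3.3 under Python 3.11.15.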

Additional observations from a re-analysis of the deposited data

How the results depend on the processing

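Of the 34 genes, 25 were called higher in all of the 16 settings in which they were tested. Between 27 and 31 were called higher, and the median log2 difference lay between 1.03 with FPKM and 1.32 with a pseudocount of 0.1. The number called lower, 2, was 1 with FPKM and 0 with no filter and with no intensity trend, and it ranged from 0 to 2 when libraries were left out in turn. Over all tested genes the number called lower ranged from 1312 to 2739 and the number called higher from 1700 to 2610 when libraries were left out. The log2 difference of Cit ranged from −0.05431 without YAP5SA replicate 1, a change of sign, to 0.3035 without YAP5SA replicate 2. Kif18a (limma adjusted p = 0.0501) and Kif18b (0.0785) lost their calls with no filter. Kif14 was not tested with FPKM or at a minimum of 5 TPM, nor was Kif15, and Kif18a was not tested at that minimum. With the replicate number as a block, 31 genes were called higher, Kif15 (adjusted p = 0.0496) and Kif2a (0.0351) added. No label says that the numbers mark shared cultures, and the library names number the libraries otherwise. Deviations of same-numbered libraries correlated at 0.101 across genes. Depth limits Kif14 most, at under 1 read per base in YAP5SA-S94A.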
